A study of Mus musculus with 20 samples.

Results

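Hematopoietic stem cells (HSCs) of mice given 2 cycles of 5-fluorouracil (2x) were compared with HSCs of untreated mice (0x) by reduced representation bisulfite sequencing (RRBS), which reads CpG methylation in restriction fragments rich in CpG. The deposited values are percent methylation of 100 bp bins, and 94203 of the 1164897 autosomal bins (8.09%) were used, out of 1201951 bins on the autosomes and X. A bin was used when its values varied in both groups and no value other than 0 or 100 occurred more than once within a group. The 2x group held 6 samples (03, 04, 15, 16, 17 and 18) and the 0x group 4 samples (01, 02, 13 and 14), of the 20 in the series, which also covers 4 and 10 cycles. The mice were female C57BL/6 J animals, 3 months old at the start, and the treated ones received the drug by intraperitoneal injection once every 3 weeks. The cells were sorted from the bone marrow of the hind legs 1 month after the last cycle. They were lineage-negative, positive for c-Kit, Sca-1 and CD150 and negative for CD34 and Flk2. The labels give the strain as C57BL/6, the cell type as HSC and the tissue as blood, and they do not say whether each sample is 1 mouse. A p-value here thus rests on the scatter of the samples alone, and that scatter may be technical. No genetic change distinguishes the groups, and 0x differs from 2x by the drug alone as far as the labels say. Read numbers are not part of the files. The depth of each value is therefore unknown, and no counting interval can be given.

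HSCs are mostly quiescent, and 5-fluorouracil (5FU), an antimetabolite that blocks thymidylate synthesis, kills the dividing progenitors below them, after which HSCs divide to refill the marrow. Methylation of cytosine in CpG pairs is copied to the new strand at replication by Dnmt1, placed anew by Dnmt3a and Dnmt3b and oxidized on the way to removal by the Tet enzymes. Promoters in CpG islands are normally unmethylated, whereas most intergenic and intronic CpG pairs are methylated.

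The 3 bins with the lowest p-values of the comparison are shown first, with 4 others that return in the results: the Nod2 bin with the widest difference of the 20 bins named, the Ddt promoter of lowest p, the Epop bin with the most CpG pairs among those 20, and 1 bin near Fndc3a whose neighbour leaned the other way. The sequences are the plus strand of GRCm38 (mm10) from the RefSeq assembly, 5′ to 3′, and the capitals mark the CpG pairs of the reference. Where a bin holds several pairs, which of them were read is not given.
chr3:39922200-39922299, intergenic, nearest 1700017G19Rik: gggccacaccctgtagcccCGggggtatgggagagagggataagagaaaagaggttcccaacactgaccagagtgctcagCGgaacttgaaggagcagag
chr13:85573000-85573099, intergenic, nearest Rasa1: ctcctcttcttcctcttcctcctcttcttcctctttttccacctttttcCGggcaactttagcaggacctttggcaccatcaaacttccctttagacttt
chr4:143297100-143297199, intron of Pdpn: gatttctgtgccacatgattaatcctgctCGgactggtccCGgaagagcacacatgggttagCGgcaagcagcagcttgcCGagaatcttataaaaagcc
chr8:88688500-88688599, transcription end of Nod2: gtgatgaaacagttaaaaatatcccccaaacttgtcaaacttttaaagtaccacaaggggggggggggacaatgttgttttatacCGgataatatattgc
chr14:72470900-72470999, intergenic, nearest Fndc3a: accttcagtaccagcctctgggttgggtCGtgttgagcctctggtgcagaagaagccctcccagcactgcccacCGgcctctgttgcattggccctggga
chr10:75773900-75773999, promoter of Ddt: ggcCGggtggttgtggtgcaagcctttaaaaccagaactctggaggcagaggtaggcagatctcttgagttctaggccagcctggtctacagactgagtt
chr11:97628200-97628299, exon of Epop: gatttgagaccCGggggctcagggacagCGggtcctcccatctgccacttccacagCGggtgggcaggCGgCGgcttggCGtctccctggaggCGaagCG
The bin near Rasa1 and those in Nod2 and the Ddt promoter hold 1 CpG pair each, so their percent is the level of that pair, whereas the Epop bin holds 8. Repeat-masked sequence makes up 100% of the bin near 1700017G19Rik, 90% of the Ddt bin, 51% of that near Rasa1 and 25% of the Nod2 bin. It makes up 0% of the bins of Pdpn, Fndc3a and Epop, and 55% of the Dlg5 bin named below.

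The first question was whether 2 cycles moved the methylation of HSCs as a whole, and the samples of the groups overlapped. Mean methylation was 51.8% in 2x sample 03, 51.6% in 04, 50.8% in 15, 50.2% in 16, 51.9% in 17 and 51.4% in 18, against 51.9% in 0x sample 01, 50.8% in 02, 50.4% in 13 and 50.7% in 14. The group means were 51.3% ± 0.659 for 2x and 50.9% ± 0.635 for 0x (SD, n = 6 and 4). They differed by 0.383 percentage points, which was within the spread of the samples (two-sided exact permutation test over 210 divisions, p = 0.414, with 0.00476 the smallest possible). A single 2x sample, 17, lay above the highest 0x sample, 01, and the 2x sample 16 was the lowest of all 10. The mean was above 0x on 19 of 19 autosomes, by 0.0306 points on chromosome 6 to 0.572 on chromosome 4, with exact permutation p-values from 0.19 to 0.938 before adjustment. The autosomes are not independent of each other, since each rests on the same 10 samples. With repeated values treated as missing, 0 of 19 autosomes were higher in 2x and the mean difference was -0.558 points (exact permutation, p = 0.357). It was 1.05 points in all deposited bins that vary (exact permutation, p = 0.019). It was 3.06 when neither group had to vary, a set chosen after seeing the data (exact permutation, p = 0.00476). The set of all deposited bins keeps values the authors filled in, which make the samples of a group alike by construction. The other set was picked by repeats among the values compared. Neither p-value can therefore separate a shift of level from the filling or the choice of bins. Under the rule, the mean difference was 0.693 points without the 0x sample 01 and 0.217 without the 0x sample 13. It was 0.601 without the 2x sample 16, and none of these passed.

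Among the bins that met the rule, those nearly unmethylated were slightly higher in 2x, but the sign changed with the set of bins taken. Bins were classed by their mean in the 4x and 10x samples, which take no part in the comparison, so that the class did not use the values compared. In the 37722 bins under 20%, the 2x samples lay between 4.85 and 5.15% and the 0x samples between 4.69 and 4.70%, with no overlap. The means were 5.00% ± 0.115 for 2x and 4.69% ± 0.00565 for 0x (SD, n = 6 and 4). They differed by 0.308 points (exact permutation, p = 0.00476, 0.0143 adjusted over the 3 level classes). The rule required variation within each group and so used the values compared. This p-value therefore cannot separate a shift of level from the choice of bins. Of these values 59.7% ± 5.11 were exactly 0 in 2x, against 43.4% ± 10.1 in 0x, and the values above 0 averaged 12.6% ± 1.82 for 2x, against 8.51% ± 1.59 for 0x. The rule that chose the bins spares repeated values of 0, so these are a description with no test, and their part in the difference was not tested. The difference depended on which bins were taken: it was 0.24 points with repeated values as missing (exact permutation, adjusted p = 0.186), -0.0685 in all deposited bins that vary (adjusted p = 0.233), and -1.46 (adjusted p = 0.00476) when neither group had to vary, a set chosen after seeing the data. The p-values of the sets that keep filled values or need no variation carry the limits given for the mean. Leaving out any one of the 10 samples left the difference under the rule between 0.278 and 0.337 points. Bins of 20 to 80% were at 54.5% ± 1.25 in 2x, against 53.3% ± 1.45 in 0x (exact permutation, adjusted p = 0.321), and bins over 80% at 91.1% ± 1.01 in 2x and 90.9% ± 0.941 in 0x (adjusted p = 0.748).

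**Figure D1:**
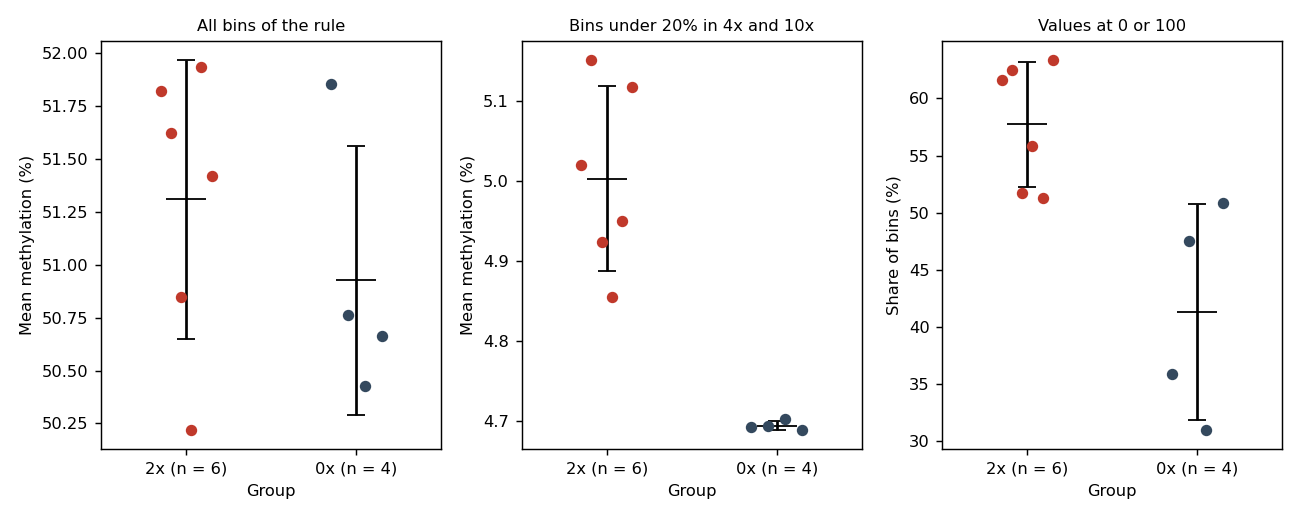
Mean methylation in percent over the 94203 bins (left), mean methylation over the 37722 bins that are under 20% in 4x and 10x (middle) and share of values at 0 or 100 in percent (right), with 1 point per sample, 2x (n = 6) left of 0x (n = 4). The horizontal line and bar are the mean and SD, and no y axis starts at 0. The groups overlap on the left, whereas in the middle the 6 samples of 2x (4.85 to 5.15%) lie above the 4 of 0x (4.69 to 4.70%), and on the right 2x (51.3 to 63.4%) lies above 0x (30.9 to 50.8%). The rule that chose the bins used the variation within each group, so the separation in the middle and on the right is a description.

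The rule that chose the bins used the variation within each group and spared repeated values of 0 and 100. It was met in 9.81% of autosomal bins in 2x and in 23% in 0x, and so the spread and the shares at 0 or 100 are a description with no test. On average a 2x sample deviated from the median of any 3 others of its group by 11.02 ± 0.441 points (SD, n = 6), against 9.496 ± 0.653 points in 0x (SD, n = 4), with no overlap of the samples. Values at 0 or 100 made up 57.7% ± 5.50 of the bins in 2x and 41.3% ± 9.43 in 0x, again without overlap. Values of 20 to 80% accounted for 15.4% ± 1.48 of the 2x bins, against 17.4% ± 0.814 of the 0x bins. Only 2167 of the 94203 bins had no value at 0 or 100 in any of the 10 samples. In these, an alternative chosen after seeing the data, the deviation reached 12.8 points for 2x, against 10.4 for 0x. Across bins, 2x samples correlated with each other at a mean Pearson r of 0.836 and 0x samples at 0.890, and samples of different groups at 0.863. These correlations run over the same bins of 10 libraries of unknown depth and are given as a description. In all deposited bins that vary, which hold the values the authors filled in, the deviation was 5.96 points in 2x and 8.20 in 0x, so its direction turned.

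None of the 8 genomic classes passed after adjustment. Promoters, taken as bins within 1 kb of a transcription start site (TSS), were at 10.1% ± 0.157 in 2x and 9.72% ± 0.145 in 0x (SD, n = 6 and 4). This difference of 0.374 points placed 5 of the 6 samples of 2x above all of 0x (exact permutation, p = 0.0143, adjusted 0.114 over the 8 classes). The promoter difference was -0.263 points with repeated values as missing, and -0.572 when neither group had to vary, a set chosen after seeing the data. The 153 bins in 5′ UTRs beyond 1 kb of a TSS were at 30.7% ± 0.796 in 2x, against 32.1% ± 0.828 in 0x. This was -1.39 points (exact permutation, p = 0.0286, adjusted 0.114), but 1.10 points in all deposited bins that vary. Intergenic DNA was at 73.0% ± 0.988 in 2x and 72.4% ± 0.961 in 0x, introns at 71.7% ± 0.944 in 2x and 71.4% ± 0.895 in 0x, and exons at 68.3% ± 0.495 in 2x and 68.7% ± 0.607 in 0x. Non-coding genes were at 59.5% ± 1.11 in 2x, against 58.5% ± 1.02 in 0x, 0.988 points apart (exact permutation, adjusted p = 0.446). By the number of CpG pairs in the bin, the differences were 0.591 points for 1 to 2 pairs, 0.44 for 3 to 5 and 0.14 for 6 or more, none of which passed (exact permutation, adjusted p = 0.429 for each). Bins that are mostly repeat-masked sequence differed by 0.445 points and the others by 0.375, a split added after seeing the data (exact permutation, adjusted p = 0.452 for both). The difference in intergenic DNA exceeded that in promoters by 0.201 points, which was within the spread (exact permutation, p = 0.724).

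**Figure D2:**
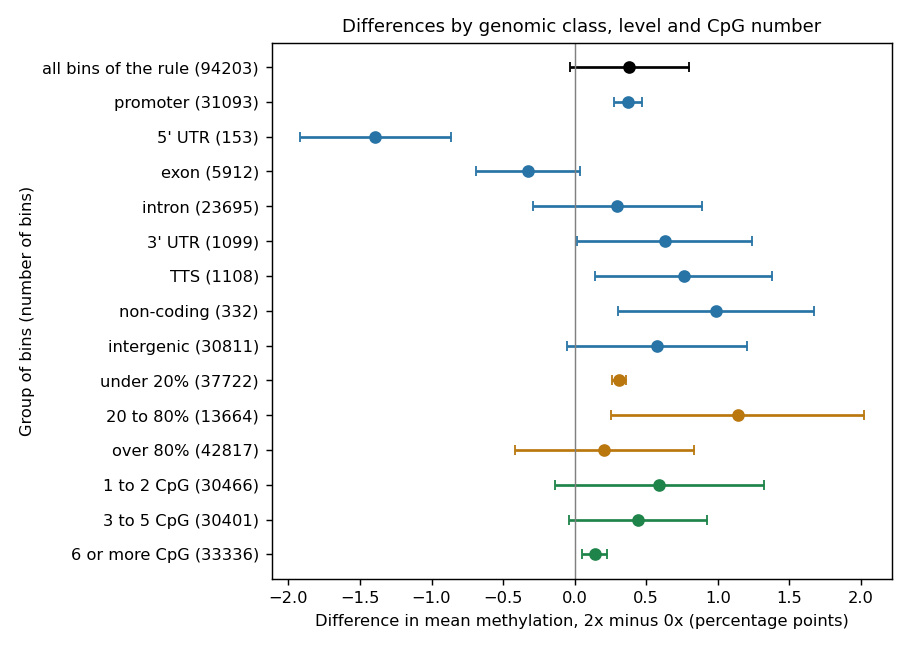
Difference in mean methylation, 2x (n = 6) minus 0x (n = 4), in percentage points (x axis) for all bins, 8 genomic classes, 3 level classes and 3 classes of CpG number (y axis, number of bins in brackets). Points are differences of group means and bars the standard error from the spread between samples. The difference runs from -1.39 in 5′ UTRs to 1.14 in bins of 20 to 80%, and the bins under 20%, at 0.308, have the shortest bar.

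Around start sites the 2 groups followed the same trough. From the TSS to 250 bp downstream, methylation was 6.49% in 2x and 6.16% in 0x, and from 3 to 5 kb downstream it was 60.4% in both. Within 250 bp upstream it was 7.29% in 2x and 6.84% in 0x. The difference was 0.446 points there, 0.328 in the 250 bp after the TSS and 0.33 in the 250 bp after those, and the samples of the groups overlapped in none of these 3 (exact permutation, unadjusted p = 0.0143, 0.00476 and 0.00952 among 20 distances). At 1.5 to 1 kb upstream it was 0.868 points (exact permutation, unadjusted p = 0.186). The p-values around start sites carry the limit given for the bins under 20%, since the same rule chose these bins.

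**Figure D3:**
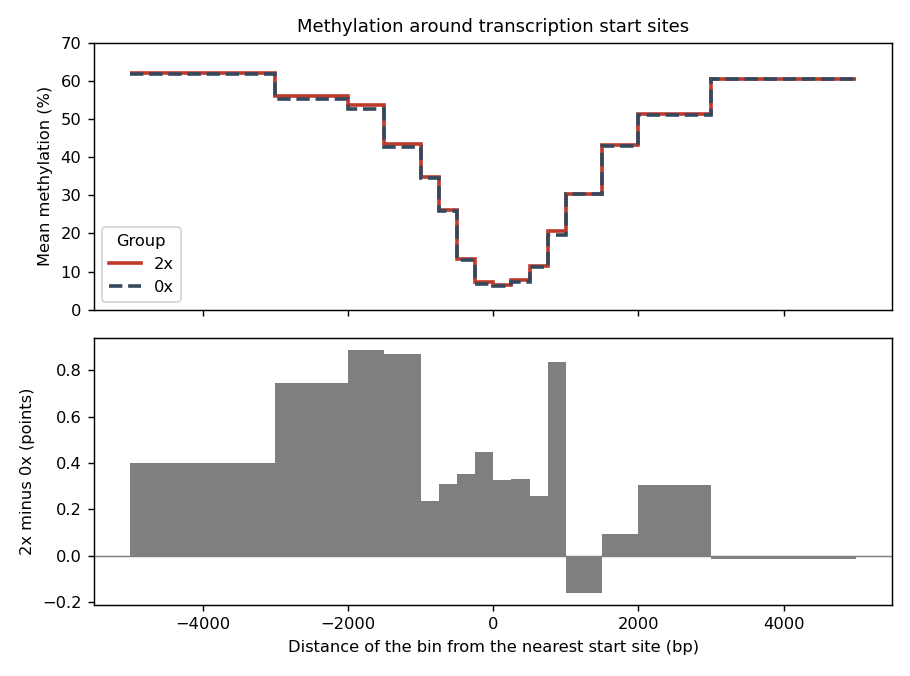
Mean methylation in percent of 2x (solid, n = 6) and 0x (dashed, n = 4) by distance of the bin from the nearest TSS in bp, negative upstream (top), and the difference 2x minus 0x in percentage points (bottom). Methylation falls to 6.49% in 2x and 6.16% in 0x just after the TSS, and between 1 kb upstream and 1 kb downstream each difference is above 0.

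The second question was which single bins differed. limma called 0 of 94203 bins higher (0%) and 0 lower (0%) in 2x at an adjusted p under 0.05 (Benjamini-Hochberg) with at least 10 points. At an unadjusted limma p under 0.05 with at least 10 points, 1623 bins were higher (1.72%) and 870 lower (0.924%), and with any difference 3284 bins (3.49%) were under that p. The samples of the groups did not overlap, with at least 10 points, in 250 higher bins (0.265%) and 144 lower bins (0.153%). Without moderation of the spread 4 bins passed. Leaving out single samples also gave calls: 27 bins without the 0x sample 01, 5 without 02 and 8 without 14, and 9 bins without the 2x sample 04, 18 without 17 and 3 without 18, whereas dropping 13 of 0x, or 03, 15 or 16 of 2x, gave none. With the spread estimated over all 4 groups of the series, 35 bins passed.

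The bins that leaned one way and the other lay in different kinds of sequence. Of the 1623 higher bins 47.4% were intergenic and 8.01% in promoters, and of the 870 lower bins 32.9% were intergenic and 27.1% in promoters. Of all bins tested, 32.7% were intergenic and 33.01% in promoters. A difference of at least 10 points, at any p, was reached by 8.79% of promoter bins and 27.1% of intergenic bins. Of the 10353 bins higher by that much, 1540 were in promoters and 4484 intergenic. Of the 9229 lower by that much, 1193 were in promoters and 3866 intergenic. In promoters themselves 130 bins were higher and 236 lower, of 31093, and in intergenic DNA 769 were higher and 286 lower, of 30811. The median number of CpG pairs was 2 in the higher bins, 3 in the lower and 4 in all. These counts come from the comparison that chose the bins and were not tested. Over 19785 pairs of adjacent bins, 100 bp apart, the Pearson r of the differences was 0.0895, and 51.8% had the same sign. For the 887 neighbours of bins under the unadjusted p with at least 10 points, r was 0.131, and 55.2% had the same sign. Of these neighbours, 52 met that cutoff themselves in the same direction and 22 in the opposite one. Of all 94203 bins, 2493 met it in either direction, and the relation between neighbours was not tested.

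A group of 3 bins came closest to the threshold, and no other bin within 1 kb of any of them met the rule. Pdpn encodes podoplanin, a mucin-type glycoprotein that binds the platelet receptor Clec-2, and 1 bin within its introns was almost unmethylated in 2x. It was at 7.60, 18.4, 0, 7.07, 0 and 0% in the 2x samples 03 to 18, against 45.3, 57.1, 51.9 and 51.7% in the 0x samples 01 to 14. All 6 samples of 2x lay below all 4 of 0x, and the difference was -46.0 ± 4.10 points (SE, limma adjusted p = 0.0508). In the bin nearest to Rasa1, a GTPase-activating protein that switches Ras off, methylation was at 57.7, 52.1, 62.1, 57.8, 52.0 and 59.8% in 2x, against 29.3, 30.1, 33.6 and 28.5% in 0x. Both groups were narrow and did not overlap, and the difference was 26.5 ± 2.51 points (SE, limma adjusted p = 0.0562), at 283564 bp from that gene's start. The intergenic bin nearest to 1700017G19Rik, an uncharacterised transcript 600662 bp away, was at 99.2, 100, 100, 100, 100 and 96% in 2x, against 64.7, 63.5, 72.4 and 75.2% in 0x (30.2 ± 2.62 points, limma adjusted p = 0.0508). These 3 bins were the calls in the set in which all 4 groups vary, and each passed when 01 of 0x, or 04 or 17 of 2x, was left out. The values after more cycles are a description, since all groups share the same 0x samples. Through 0x, 2x, 4x and 10x the means of the Pdpn bin were 51.5, 5.51, 31.8 and 38.1%. Those of the bin near Rasa1 were 30.4, 56.9, 40.9 and 38.5% in the same order.

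Among the other higher bins of lowest p, the widest difference lay at the transcription end of Nod2, the intracellular sensor of bacterial muramyl dipeptide. Its single CpG pair was at 100, 95.5, 100, 100, 66.7 and 100% in 2x, against 0, 0, 13.3 and 32.1% in 0x. The difference was 82.3 ± 8.56 points (SE, limma adjusted p = 0.0764), and the bin had means of 11.4, 93.7 and 61.6% through 0x, 2x and 4x. At 10x a value recurs within the group, so that mean is not given. An intronic bin of Dlg5, a membrane-associated scaffold protein, was at 99.5% ± 1.18 in 2x and 65.0% ± 9.21 in 0x (34.5 points), and averaged 95.1% in 10x. Intergenic bins nearest to Slitrk6, a neuronal transmembrane protein, and to Fscb, a protein of the sperm fibrous sheath, were at 98.2% ± 4.41 and 98.5% ± 2.65 in 2x, against 67.2% ± 5.33 and 68.5% ± 7.72 in 0x. The remaining 3 lay near predicted genes, with differences of 23.8, 11.7 and 17.7 points on chromosomes 10, 16 and 18. Of the 10 higher bins 8 were intergenic, against 32.7% of all bins tested and 47.4% of the 1623 higher bins. In 9 of the 10 the 2x mean was over 90%.

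The bin nearest to Fndc3a, a fibronectin type III domain protein, stood beside one that leaned the other way. The bin was at 94.6% ± 6.09 in 2x, against 48.3% ± 10.7 in 0x, 46.3 points apart (limma adjusted p = 0.0855). The next 100 bp, from 72471000 on, were at 15.3% in 2x, against 58.9% in 0x, or -43.6 points. No other bin within 1 kb of it met the rule.

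Of the 10 lower bins of lowest p, 2 were intergenic, against 32.7% of all bins tested and 32.9% of the 870 lower bins. In Cerkl, which encodes a protein like ceramide kinase, the intronic bin was at 2.19% ± 2.84 in 2x and 31.6% ± 8.34 in 0x (-29.4 points, limma adjusted p = 0.148), and here the bin before it leaned the same way, at 4.88% in 2x and 30.2% in 0x. In Btnl9, a butyrophilin-like protein of the immunoglobulin superfamily, an exonic bin with 6 CpG pairs was at 8.08% ± 9.20 in 2x and 59.9% ± 14.1 in 0x, and 3 further bins within 1 kb differed by -11.3, -13.6 and -6.22 points. In an exon of Epop, a protein that associates with Polycomb repressive complex 2 and with elongin B and C, the bin was at 0.382, 0, 0, 0, 0 and 0% in 2x, against 21.4, 22.4, 18.6 and 39.1% in 0x (-25.3 ± 3.66 points, limma adjusted p = 0.238). The 10 other bins within 1 kb of it differed by -27.3 to 22.5 points, 5 of them in each direction. An intronic bin of Dbn1, the actin-binding protein drebrin, was at 3.32% ± 7.31 in 2x and 68.3% ± 21.6 in 0x, the widest of the lower differences at -65.0 points, and its neighbour 100 bp before was at 88.4% in 2x and 88.1% in 0x. The bin nearest to Egln3, a prolyl hydroxylase that marks hypoxia-inducible factor for degradation, was at 44.0% ± 9.96 in 2x and 92.2% ± 10.1 in 0x. Bins nearest to B4galnt3, a glycosyltransferase, and in an intron of Mob3b, of the MOB family of kinase regulators, were at 2.85% ± 5.39 and 3.09% ± 3.98 in 2x, against 49.5% ± 14.3 and 39.1% ± 13.02 in 0x. The bin 100 bp before that of Mob3b leaned the other way, at 48.4% in 2x and 28.1% in 0x. In 9 of the 10 lower bins the 2x mean was under 10%.

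**Figure D4:**
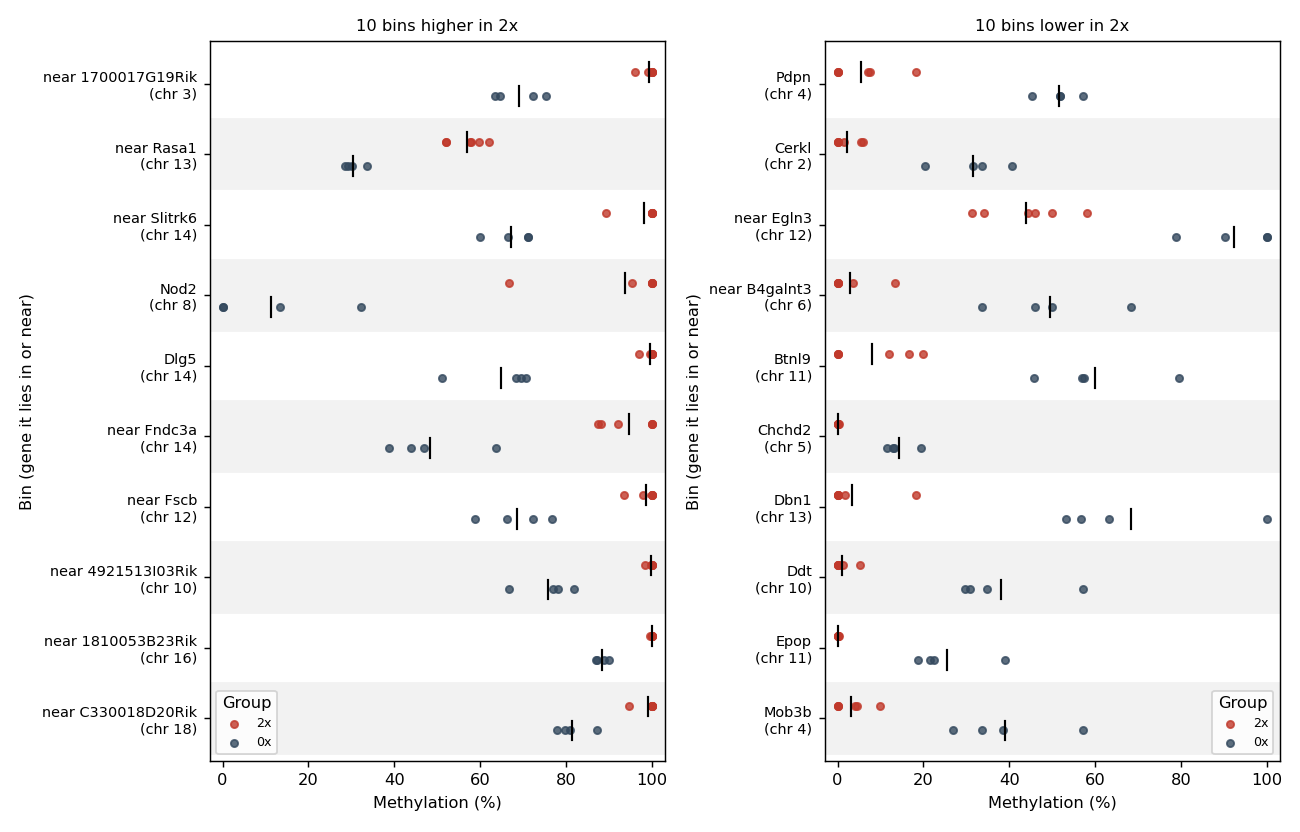
Methylation in percent (x axis) of the 10 bins higher and the 10 bins lower in 2x with the lowest limma p and at least 10 points (y axis, by the gene the bin lies in or is nearest to), with 1 point per sample, 2x (n = 6) above 0x (n = 4) in each row, and a black tick for the group mean. The groups overlap in none of the 20 bins, and the 2x samples gather near 100% on the left and near 0% on the right, except near Rasa1 (52.0 to 62.1%) and Egln3 (31.3 to 58.0%).

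The third question was which gene promoters differed. Averaged over the bins within 1 kb of a TSS, limma called 0 of 12752 promoters higher (0%) and 0 lower (0%) at an adjusted p under 0.05. At an unadjusted limma p under 0.05, 131 were higher (1.03%) and 239 lower (1.87%), and in 22 higher (0.173%) and 51 lower promoters (0.4%) the samples of the groups did not overlap. Over all promoters the median difference was 0.247 points, and 54.8% were higher. Of the 10897 promoters under 20% in 0x, 72 were higher and 180 lower at that p, and of the other 1855, 59 were higher and 59 lower. This split used the 0x values that are compared, so these counts are a description. The lowest adjusted p, 0.305, belonged to Ddt, the gene of D-dopachrome tautomerase, a relative of the cytokine MIF. Its promoter rests on 1 bin, 90% of it repeat-masked. The bin was at 0, 0, 1.23, 0, 5.26 and 0% in 2x, against 57.1, 30.8, 29.6 and 34.9% in 0x, which did not overlap (-37.0 ± 4.85 points, SE). Without the 0x sample 01 this promoter passed, at a difference of -30.7 points. A bin in the promoter of Chchd2, a mitochondrial protein, was also lower, at 0.0728% ± 0.139 in 2x and 14.2% ± 3.61 in 0x (limma adjusted p = 0.156).

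Several receptors and enzymes were among the promoters that leaned lower in 2x, each with an adjusted limma p of 0.88. The promoter of Slc39a2, a zinc transporter, was at 32.1% ± 13.2 in 2x and 67.9% ± 6.39 in 0x over 2 bins, and it passed without the 2x sample 17. That of Aox1, aldehyde oxidase, was at 2.42% ± 4.88 in 2x and 29.7% ± 13.9 in 0x, and that of P2ry12, an ADP receptor of platelets, at 3.14% ± 5.67 in 2x and 33.3% ± 16.7 in 0x. For Upk2, a uroplakin, the promoter was at 28.5% ± 10.4 in 2x and 52.4% ± 4.07 in 0x. Smaller differences, from low levels, were those of Rarb, a retinoic acid receptor (1.10% in 2x and 7.13% in 0x), Zswim4 (0.1% in 2x and 4.81% in 0x), Ppp5c, a serine/threonine phosphatase (0.103% in 2x and 4.33% in 0x), and Trappc8, a subunit of a vesicle tethering complex (0.253% in 2x and 10.98% in 0x). The promoter of AI413582 differed by -11.2 points over 2 bins. Each of the promoters in this paragraph but those of Slc39a2 and AI413582 rests on 1 bin.

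Of the 10 higher promoters of lowest p, Atxn2l rests on the most bins. Atxn2l encodes an RNA-binding relative of ataxin-2, and over 9 bins its promoter was at 11.9, 15.8, 15.1, 11.8, 14.5 and 13.4% in 2x, against 6.63, 2.22, 10.0 and 6.07% in 0x. The groups did not overlap, and the difference was 7.53 ± 1.601 points (SE, limma adjusted p = 0.88). The promoter of Nos3, endothelial nitric oxide synthase, was at 84.2% ± 19.05 in 2x and 27.3% ± 21.1 in 0x, on 1 bin. That of Inpp5j, an inositol phosphatase, was at 95.5% ± 10.1 in 2x and 48.3% ± 19.9 in 0x, and that of Cd55, which protects cells from complement, at 97.8% ± 4.25 in 2x and 70.1% ± 15.6 in 0x. Minar2, Emid1, Il22ra1, a subunit of the interleukin 22 receptor, and Trim63, a ubiquitin ligase of muscle, differed by 31.3, 13.1, 31.5 and 29.2 points. In all deposited bins that vary, the Inpp5j promoter differed by -10.2 points and those of Aox1 and Upk2 by 7.05 and 5.30.

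**Figure D5:**
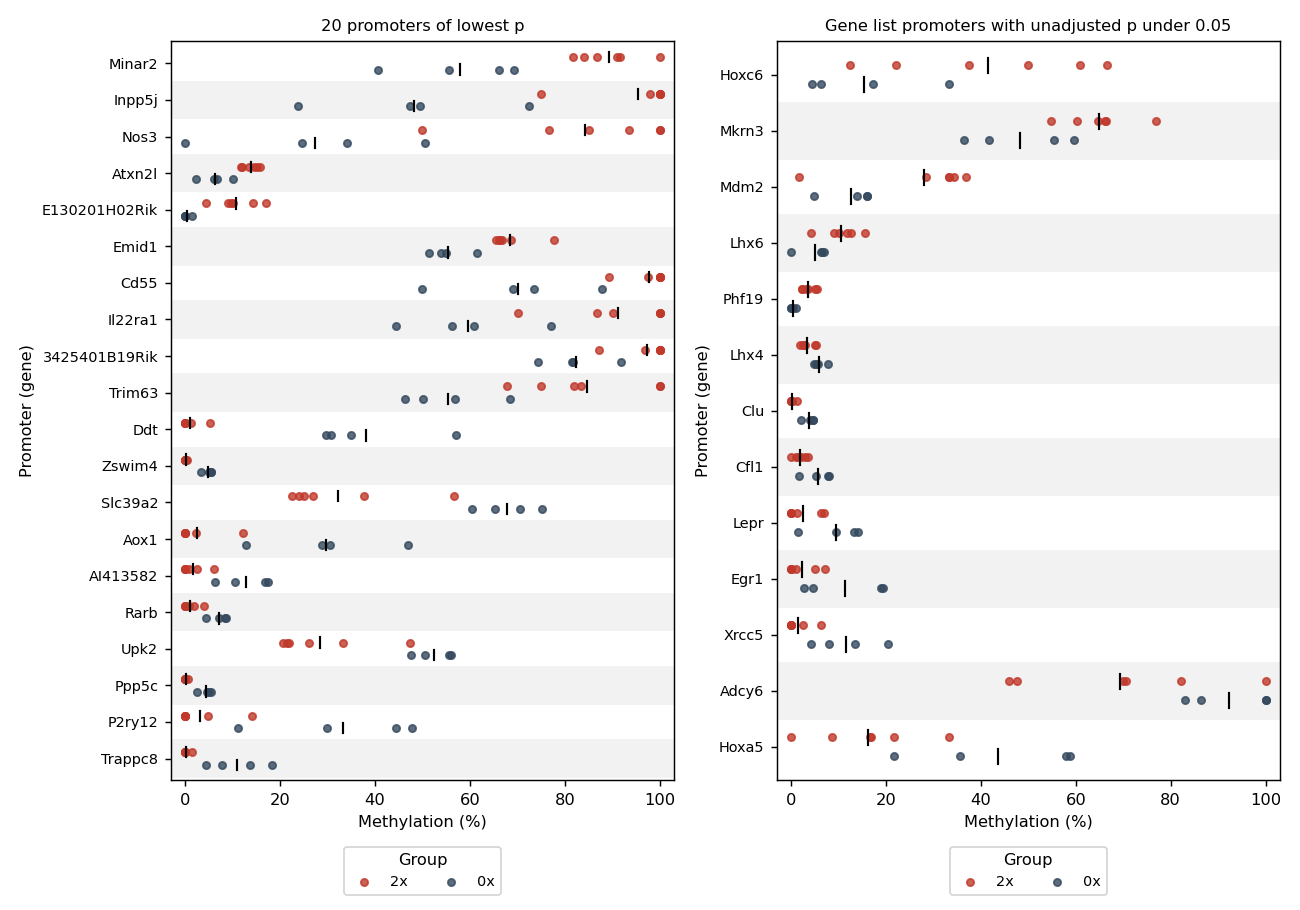
Promoter methylation in percent (x axis) of the 20 promoters of lowest limma p, 10 per direction (left), and of the gene list members named in the text with an unadjusted limma p under 0.05 (right), with 1 point per sample, 2x (n = 6) above 0x (n = 4) in each row, and a black tick for the group mean. On the left the Ddt promoter has the 2x samples at 0 to 5.26% and the 0x samples at 29.6 to 57.1%, and on the right the groups overlap in all but Phf19 and Clu.

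In 1 kb windows with at least 3 bins, limma called 0 of 5712 higher (0%) and 0 lower (0%), with 38 higher (0.665%) and 42 lower (0.735%) at an unadjusted limma p under 0.05 and at least 10 points. The samples did not overlap in 5 higher (0.0875%) and 9 lower windows (0.158%). The lowest p belonged to a window on chromosome 4 from 49466000, 15241 bp from the start of Acnat1, an acyltransferase for bile acids and fatty acids. It was at 75, 75, 73.7, 70.6, 72.8 and 79.8% in 2x, against 84.9, 89.2, 83.1 and 86.6% in 0x, with no overlap (-11.5 ± 1.89 points, SE, limma adjusted p = 0.406). A window at the promoter of Klf3, a Krüppel-like repressor that acts in erythroid and B cells, was at 2.49% ± 3.07 in 2x and 21.5% ± 8.01 in 0x (limma adjusted p = 0.406), and it passed without the 0x sample 14. An exonic window of Runx3, a runt-domain transcription factor of lymphoid cells, was at 40.2% ± 12.7 in 2x and 64.6% ± 8.70 in 0x, and 2 windows of exons of the kinase gene Lmtk3 differed by -34.5 and -11.7 points. The windows of Zfp982, Btnl9, Prr23a3, Slc9a3 and Septin1 differed by -17.2, -20.7, -15.997, -17.6 and -16.5 points. Of the higher windows, one lies 2673 bp from the start of the mesoderm factor T (brachyury), at 50.03% ± 12.2 in 2x and 16.3% ± 17.8 in 0x. Windows in Tnr, Atp8b3, Trpv4, a cation channel, and Macrod2 differed by 17.7, 31.6, 30.4 and 29.7 points, and those nearest to Rpia, Lmntd1, Zfp503 and Thegl by 19.7, 20.5, 15.99 and 21.7.

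Promoters of genes of HSC identity were under 20% in both groups for 16 of 17 measured genes, Cdkn1c, a cell cycle inhibitor, being at 52.0% in 2x and 46.9% in 0x. The lists used held 604 genes, of which 449 had a promoter value, and no member of any of the 29 lists passed the adjusted test, against 0% of all promoters. Of 17 measured genes of HSC identity, 9 were higher and 8 lower in 2x, with a median level of 2.34% in 2x and 2.40% in 0x. None of them was under an unadjusted limma p of 0.05, at which 1.03% of all promoters were higher and 1.87% lower. The promoter of Msi2, an RNA-binding protein of HSC self-renewal, was at 2.03% ± 1.64 in 2x and 4.92% ± 2.24 in 0x, and that of Bmi1, a Polycomb protein, at 1.63% ± 0.797 in 2x and 3.61% ± 1.29 in 0x. Fli1 and Gata2, transcription factors of HSCs, differed by 1.97 and 1.79 points. Promoters of the lymphocyte markers Cd2 and Zap70 were methylated, with Cd2 at 79.98% in 2x and 96.3% in 0x and Zap70 at 93.1% in 2x and 92.6% in 0x. The lineage factors Ebf1 and Bcl11b were under 7% in both groups. Cd22, on 1 bin, was at 64.9% ± 42.5 in 2x and 72.6% ± 48.6 in 0x, with samples from 0 to 100% in each group. Of the red cell markers, Ermap was at 96.3% in 2x and 95.1% in 0x, Klf1 at 4.04% in 2x and 3.65% in 0x and Slc4a1 at 53.9% ± 31.9 in 2x and 27.7% ± 25.8 in 0x. Mpo, a granule enzyme, was at 47.6% ± 39.9 in 2x and 48.3% ± 23.2 in 0x. Of 6 endothelial and stromal markers, 4 were higher and 2 lower, and 1, Lepr, was at an unadjusted limma p of 0.027 (2.43% in 2x and 9.56% in 0x), with Kdr, Col1a2 and Kitl at differences of 4.51, 4.52 and 1.26 points. Promoter methylation is not expression, and marker promoters are given as levels only.

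No promoter of a gene raised in aged HSCs passed the adjusted test. Of 10 measured genes of that list, 3 were higher and 7 lower, with a median difference of -1.49 points against 0.247 over all promoters. The promoter of Clu, the secreted chaperone clusterin, was at 0, 0, 0, 0.2, 1.32 and 0.128% in 2x, against 4.08, 4.58, 4.72 and 2.01% in 0x (limma unadjusted p = 0.00364). The samples did not overlap. That of Egr1, a zinc finger factor that holds HSCs in quiescence, was at 2.23% ± 3.13 in 2x and 11.4% ± 8.98 in 0x (limma unadjusted p = 0.0317). Mt1 and Trpc1 differed by -3.15 and -6.48 points.

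Genes of DNA repair leaned both ways. Of 21 measured members, 10 were higher and 11 lower, and Xrcc5 and Mdm2 were among those under an unadjusted limma p of 0.05. Xrcc5, the Ku80 subunit that binds broken ends, was at 1.47% ± 2.59 in 2x and 11.5% ± 7.02 in 0x. Mdm2, the ubiquitin ligase of p53, was at 28.5, 33.3, 34.3, 33.3, 1.71 and 36.9% in 2x, against 13.8, 4.75, 16.1 and 16.1% in 0x. The 2x sample 17 was below all of 0x there and the other 5 above. Fancc differed by -5.54 points. Of 12 measured genes that handle fluorouracil and uracil, 7 were higher and 5 lower, and Umps, Slc29a1 and Ppat differed by -2.39, 3.55 and -2.74 points. None of the 12 was under that p, at which 1.03% of all promoters were higher and 1.87% lower.

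Promoters of Polycomb and methylation genes were mostly low in both groups. Of 28 measured Polycomb genes, 20 were higher and 8 lower in 2x, 71.4% against 54.8% of all promoters, with a median difference of 0.61 points. Phf19, a PRC2 accessory protein, was at 5.54, 2.25, 3.24, 3.48, 2.21 and 5.11% in 2x, against 0.511, 0.0265, 1.07 and 0% in 0x (limma unadjusted p = 0.0115). These did not overlap, although the difference was -4.87 points in all deposited bins that vary. Cbx8 and Mtf2, of PRC1 and PRC2, differed by 7.93 and 2.23 points. Of 13 genes of the methylation machinery 8 were higher and 5 lower. Dnmt3a, over 12 bins, was at 3.01% ± 1.93 in 2x and 1.59% ± 0.91 in 0x, and Tet2 at 0.129% ± 0.161 in 2x and 1.16% ± 0.859 in 0x. Idh1 and Mbd3 differed by -3.42 and -1.60 points. Of 20 measured genes of clonal hematopoiesis 13 were higher and 7 lower, and Ppm1d differed by 3.47 points.

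The Hox genes, which pattern the body axis, had a median promoter level of 6.22% in 2x and 7.01% in 0x. Of 33 measured 12 were higher and 21 lower. Hoxa5 was at 33.2, 0, 21.8, 8.59, 16.8 and 16.6% in 2x, against 21.8, 58.9, 35.6 and 57.8% in 0x over 4 bins (-27.4 ± 8.47 points, limma unadjusted p = 0.00968). Hoxc6 was at 41.6% ± 21.5 in 2x and 15.3% ± 13.3 in 0x, and Hoxc11 and Hoxd13 differed by -2.92 and -5.30 points. Of 29 imprinted genes 14 were higher and 15 lower, with a median level of 44.4% in 2x and 46.9% in 0x. Mkrn3, expressed from the paternal allele, was at 64.9% ± 7.37 in 2x and 48.3% ± 11.05 in 0x (limma unadjusted p = 0.012), and the non-coding Peg13 at 40.1% ± 11.8 in 2x and 59.3% ± 18.7 in 0x. Phlda2 and Nespas differed by -3.96 and -33.0 points. Of 54 other developmental homeobox genes 31 were higher and 23 lower, among them the LIM homeobox genes Lhx6 (10.6% ± 3.88 in 2x and 4.96% ± 3.32 in 0x) and Lhx4 (3.41% ± 1.39 in 2x and 5.95% ± 1.29 in 0x), with Zic1 and Six2 at -5.01 and 2.06 points. Germline gene promoters were mostly methylated, with a median of 89.1% in 2x and 92.8% in 0x over 14 genes, and Dazl, an RNA-binding protein of germ cells, was at 61.3% ± 4.74 in 2x and 65.5% ± 1.75 in 0x. Tdrkh, Mael and Sycp3 differed by 18.1, 5.93 and -3.64 points.

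Signalling genes gave few values under the unadjusted limma p of 0.05, at which 1.03% of all promoters were higher and 1.87% lower. Of 37 Wnt pathway genes 17 were higher and 20 lower, and Wif1, Fzd10, Sfrp2 and Wnt4 differed by -1.75, -2.88, -2.79 and 1.88 points. Of 27 genes of cAMP signalling 16 were higher and 11 lower, and Adcy6, an adenylyl cyclase, was at 69.4% ± 20.6 in 2x and 92.4% ± 8.92 in 0x (limma unadjusted p = 0.0494). Prkaca, Prkar1b and Akap5 differed by -2.52, 3.91 and 5.86 points. Of 30 genes of the actin cytoskeleton 21 were higher and 9 lower, 70% against 54.8% of all promoters. The severing protein cofilin (Cfl1) was at 1.85% ± 1.30 in 2x and 5.68% ± 2.96 in 0x (limma unadjusted p = 0.0267), and Myl9, Rhob and Rock1 differed by 10.2, -2.84 and -3.99 points. Of 24 genes of cytokine receptors and their signalling 12 were higher and 12 lower. Ifnar2, Tgfbr1 and Tgfbr2 differed by 3.67, 2.30 and -5.12 points. In all deposited bins that vary, the direction of Cfl1 turned to 0.438 points and that of Lhx6 to -9.53.

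Genes of cell division, death, lineage and telomeres held none under the unadjusted limma p of 0.05. Of all promoters 1.03% were higher and 1.87% lower at that p, so lists this short would hold few. Of 19 cell cycle genes 12 were higher and 7 lower, and Cdkn2b, an inhibitor of Cdk4 and Cdk6, was at 0.898% ± 1.67 in 2x and 3.92% ± 3.07 in 0x, with Ccne1, Cdk6 and E2f2 at differences of 1.72, 2.44 and 3.10 points. Of 14 genes of the Bcl2 family 6 were higher and 8 lower, and the death-promoting Bik and Pmaip1 differed by -9.62 and 9.41 points, Bok and Bcl2l11 by 1.68 and 3.15. Of 9 myeloid genes 5 were higher and 4 lower, and Irf8, a factor of monocytes and dendritic cells, was at 10.2% ± 11.8 in 2x and 18.7% ± 6.66 in 0x, with Cebpb, Cebpa and Gfi1 at -1.68, 1.56 and 1.14 points. Of 12 lymphoid genes 7 were higher and 5 lower, and Rag1, Foxo1 and Ikzf1 differed by 10.5, -1.56 and 2.56 points. Of 8 genes of red cells and megakaryocytes 4 were higher and 4 lower, with Epor, Tfrc and Ank1 at -21.6, -1.71 and -2.31 points. Of 13 telomere genes 8 were higher and 5 lower, with Stn1, Nop10 and Ctc1 at 8.88, 2.30 and -4.31 points. Of 16 pluripotency genes 9 were higher and 7 lower, and Pou5f1 was at 52.6% ± 6.73 in 2x and 42.6% ± 18.6 in 0x, with Esrrb, Dppa3 and Sall4 at -7.12, 3.57 and 0.80 points.

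The genes that the study itself singles out were chosen on these samples and are not independent evidence of a direction. The study called differences from reads with methylKit and describes these genes under a response shared by all cycle numbers. The values below are means of percents over the promoter bins that met the rule, so they do not test its calls. For example, 1 of 3 deposited promoter bins was used for Il3, 2 of 7 for Flt3, 4 of 21 for Cdkn2a and 1 of 13 for Cdkn1b. Of the 9 it lists as gaining methylation 6 had a promoter value, 3 higher and 3 lower in 2x. Rara, a retinoic acid receptor, was at 3.05% ± 2.56 in 2x and 2.88% ± 0.775 in 0x over 10 bins, and Flt3 (CD135 or Flk2), Cebpe, Grb2, Eif4ebp1 and Il3 differed by 0.154, 1.01, -3.70, -1.45 and -4.64 points. Of the 11 it lists as losing methylation 9 had a value, 4 higher and 5 lower. The telomerase RNA gene Terc was at 2.22% ± 3.57 in 2x and 9.75% ± 14.2 in 0x, where the 0x sample 02 was at 30% and the samples 01 and 14 at 0, and Tert, its reverse transcriptase, at 1.05% ± 2.57 in 2x and 1.75% ± 3.49 in 0x. Itga3, Pparg, Wnt5a, Wnt3a, Cdkn2a, Wnt7a and Cdkn1b differed by 6.27, 2.57, -0.802, -1.09, 0.76, 0.0379 and -0.0207 points. None of these 15 was under an unadjusted limma p of 0.05, at which 1.03% of all promoters were higher and 1.87% lower. Stat5a, Bcl2a1d, Bcl2a1b, Nos2 and Wnt1 have deposited promoter bins, none of which met the rule.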

How the data were processed

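RRBS was run on DNA of sorted HSCs, and the deposited values are percent methylation, 1 per 100 bp bin and sample. Per the study's methods and the submitters' processing notes, the authors ran Trim Galore 0.4.3 (quality cutoff 25) and then Bismark 0.23.1 against mm10, kept bases with 10 reads or more in methylKit 1.22.0, and filled bins missing in a sample with the level of its group. Filled values are not marked, so repeated values were used to find them, and a value filled in 1 sample cannot be seen. No read numbers are used, since the files hold none, and the methods' test on reads was replaced by limma on the percent.

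Bins were annotated from 45657 RefSeq transcripts of GRCm38 by their centre, in the order promoter (within 1 kb of a TSS), TTS (100 bp before to 1 kb after the transcript end), exon, 5′ UTR, 3′ UTR, non-coding, intron and intergenic. Sample means were compared by two-sided exact permutation (210 divisions), and bins, promoters and windows by limma 3.58.1 (lmFit, eBayes) in R 4.3.3 with Benjamini-Hochberg adjustment over all features tested, at an adjusted p under 0.05 and, for bins and windows, at least 10 points. Errors are SD over samples, or SE where said. The scripts were tested on simulated data. Named are the 10 bins, promoters and windows per direction of lowest p, the study's genes and the 4 members of lowest p of each gene list, except a few genes not reported here. The members and lists were chosen with earlier results of these data known. Alternatives changed the set of bins, the samples, the scale, the spread, the minimum difference and the promoter definition. X was left out and used as an alternative. Means, lists and figures used matplotlib 3.10.9, pandas 2.3.3 and numpy 2.4.6 under Python 3.11.15.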

Additional observations from a re-analysis of the deposited data

Results flagged for a closer look

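In 13 of the 20 named bins and 9 of the 20 named promoters, 1 sample of 2x stood far from the other 5 by the gap-to-range rule, which chance meets in about 1 of 20 groups, and in 0x this was so in 1 bin and 1 promoter. None of 38 groups of sample-level values (means, classes and shares at 0 or 100) did so. In most of these features the other 2x samples are at or close to 0 or 100, where a single other value is enough to meet the rule. The part of the values at 0 or 100 in the low p-values was not tested. The 2x sample 17 was the one apart at 66.7% in the Nod2 bin, 94.7% in the bin nearest to C330018D20Rik, 0.347% in the Chchd2 bin, 18.2% in the Dbn1 bin, 5.26% in the Ddt bin and promoter, 75% in the Inpp5j promoter, 87.2% in that of 3425401B19Rik and 14.04% in that of P2ry12. Sample 15 was apart at 89.2% near Slitrk6, 99.5% in the bin of chromosome 16 near 1810053B23Rik, 77.8% in the Emid1 promoter, 89.4% in that of Cd55 and 12.2% in that of Aox1. Sample 18 was apart at 96% near 1700017G19Rik, 97.1% in Dlg5, 93.4% near Fscb, 0.617% in the Ppp5c promoter and 1.52% in that of Trappc8. Sample 16 was apart at 98.5% near 4921513I03Rik and 13.4% near B4galnt3, and sample 03 at 0.382% in the Epop bin. In 0x, sample 02 was apart at 51.2% in Dlg5 and sample 01 at 1.41% in the E130201H02Rik promoter.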

How the results depend on the processing

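The set of bins decided most results. In all deposited bins that vary, where filled values make the samples of a group alike by construction, the mean difference was 1.05 points, 7 genomic, 2 level and 2 CpG classes passed, and 101444 bins, 3450 promoters and 6545 windows were called. There the differences were 1.10 points in 5′ UTRs, 0.717 in exons and -0.0685 in bins under 20%, and the excess spread of 2x turned to -2.24 points. The promoters of Aox1, Cfl1, Inpp5j, Lhx6, Phf19 and Upk2 turned to 7.05, 0.438, -10.2, -9.53, -4.87 and 5.30 points, and the windows nearest to Lmntd1 and Zfp503 to -17.3 and -2.18. With no repeated value but variation within each group not required (chosen after seeing the data), the mean difference was 3.06 points, 8 genomic, 3 level and 3 CpG classes passed, and promoters, 5′ UTRs, exons, bins under 20% and bins of 6 or more CpG pairs differed by -0.572, 0.996, 2.65, -1.46 and -0.285 points. With repeated values as missing, the mean difference was -0.558 points, promoters, bins under 20% and bins of 6 or more CpG pairs differed by -0.263, 0.24 and -0.59, 0 level classes passed, 0 autosomes were higher, and 1 bin was called. The median over bins differed by -0.262 points. The bins called were 3 where all 4 groups vary, 35 with all 4 groups in the fit and 4 without moderation, which also called 1 promoter. With 500 bp promoters, AI413582, Cfl1 and Lhx6 turned to 0.223, 0.194 and -0.030 points. The cause of these changes was not tested. The set that required no variation was still chosen by the values compared, so the classes passing in it are a description. Leaving out 1 sample gave mean differences of 0.217 to 0.693 points, 0 to 27 called bins, 0 to 2 promoters, 0 to 1 windows and 15 to 19 autosomes higher, and -0.0201 to 0.67 points in bins over 80%. The named bins kept their direction in all 417 values of 20 bins. These bins were picked for low p and none had overlapping groups, so this outcome was fixed by their choice. No paired analysis was possible because the groups share no replicate numbers. With the run of label numbers (01 to 04 or 13 to 18) as a block no bin, promoter or window passed, and within the runs the mean differences were 0.413 and 0.558 points. The unknown depth limits every single-bin value.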

Other observations

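Few genes held several bins under the unadjusted limma p of 0.05 with at least 10 points in one direction, and these were named after their values were seen. Rbfox3, a neuronal splicing factor, had 4 lower bins of 62 tested, with a median difference of -38.5 points. Sdk1, a cell adhesion protein of the immunoglobulin superfamily, had 3 higher bins of 33, with a median of 30.2 points. The others were 3110070M22Rik (5 higher of 8), Them7 (3 higher of 10) and Fignl2 (3 lower of 13).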
